A study of Mus musculus with 4 samples.

Results

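Transforming growth factor beta (TGF-beta) signalling genes were followed through microglia of the adult mouse brain as a set of 10 genes named by their role in the pathway, out of 28692 genes in the count tables. The set held the ligand Tgfb1, the ligand-anchoring gene Nrros, the receptors Tgfbr1 and Tgfbr2, the signal transducers Smad2, Smad3 and Smad4, the inhibitors Smad7 and Ski and the feedback target Pmepa1. They were taken whatever their level, and all 10 were detected in all 4 libraries, with between 494 UMIs for Smad4 and 23409 UMIs for Tgfbr1 in all. A UMI, or unique molecular identifier, marks 1 captured mRNA molecule.

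The libraries were single-cell RNA-seq (10x Genomics 3' version 2) of sorted CD45+ CD11b+ cells, the gate for brain myeloid cells, from cortex and hippocampus. All 4 mice were male C57BL/6J at postnatal day 90 that had received PBS into the tail vein, and each gave 1 library after cold Dounce homogenization, a mechanical dissociation without enzymes. The labels place the injection 24 h before the animals were killed, whereas the methods of the study give a different interval. Every mouse belonged to the same group (n = 4 mice), so the comparisons below are between libraries and between cells of the same library, and none is between treatments.

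TGF-beta is made as a latent complex that stays bound to a carrier on the cell surface or in the matrix until integrins release it. The free ligand binds the type II receptor, which activates the type I receptor, and this phosphorylates Smad2 and Smad3 so that they enter the nucleus with Smad4. In the brain, TGF-beta is known as a signal on which microglia depend for their mature identity, and Nrros is known to hold latent TGF-beta1 on the microglial surface.

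The files held 13138 cell barcodes, of which 13002 had at least 400 detected genes and at most 10% mitochondrial UMIs, and these 2576 to 3692 cells per library were used. They carried 33165655 UMIs, with library totals between 5841671 and 11267195 and a median per cell between 1905 and 2936. Any pair of libraries shared between 6 and 21 barcodes. The 6 microglia markers summed to 28392 ± 640 counts per 1000000 (CPM, mean ± SD, n = 4 mice). The sums were 12.6 to 84.8 CPM for 8 brain macrophage markers, 11.7 to 54.7 CPM for monocyte markers and 0 for neutrophil markers. Astrocyte markers gave 220 to 279 CPM, of which Slc1a3 took 99.0%, and platelet markers 74.5 to 102 CPM, of which Gp9 took 98.7%. Oligodendrocyte markers gave 50.5 to 59.4 CPM, B cell markers 46.6 to 51.3 CPM, endothelial markers 22.0 to 28.8 CPM and neuron markers 1.54 to 1.78 CPM. The immediate early genes were higher in replicate 4, where the best-scoring cells began at 7 UMIs of those genes per 1000, against 3 to 4 in the other libraries. According to the methods, the last animal was sorted a second time after the sorter clogged. The supplement of the study calls that mouse Sample 4 and places cells with its ex vivo activation signature almost only there. The labels do not say which library that was.

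The promoters of Tgfb1, Nrros and Tgfbr1 are shown because these were the members called in the homeostatic and interferon contrasts below. Each is the 250 bases before the transcription start in RefSeq on GRCm38.p6, read 5′ to 3′ on the strand of the gene. Entries were found for 6 of the 10 genes. Tgfbr1 has 2 entries, and the one at its annotated start is shown. Capitals mark CAGAC, the SMAD box, on either strand.

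Tgfb1, chr7:25686752-25687001, plus strand: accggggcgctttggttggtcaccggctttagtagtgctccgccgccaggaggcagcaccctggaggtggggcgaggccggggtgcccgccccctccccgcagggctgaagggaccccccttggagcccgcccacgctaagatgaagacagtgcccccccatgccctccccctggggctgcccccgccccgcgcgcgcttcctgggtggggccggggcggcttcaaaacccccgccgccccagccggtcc

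Nrros, chr16:32165595-32165844, minus strand: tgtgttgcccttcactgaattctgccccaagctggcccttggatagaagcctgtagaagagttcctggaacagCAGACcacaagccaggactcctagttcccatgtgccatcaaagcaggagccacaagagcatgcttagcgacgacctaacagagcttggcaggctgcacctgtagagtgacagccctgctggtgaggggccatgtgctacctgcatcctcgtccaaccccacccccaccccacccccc

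Tgfbr1, chr4:47352972-47353221, plus strand: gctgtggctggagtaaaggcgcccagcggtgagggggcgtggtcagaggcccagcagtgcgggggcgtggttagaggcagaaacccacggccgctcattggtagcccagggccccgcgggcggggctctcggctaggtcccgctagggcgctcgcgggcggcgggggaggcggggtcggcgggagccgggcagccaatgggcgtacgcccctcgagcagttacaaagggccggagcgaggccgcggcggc

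The SMAD box was found on either strand in 13861 of 32851 mouse promoters of this length (42.2%), and here the Nrros window held 1 copy and the Tgfb1 and Tgfbr1 windows none. None of the 3 windows held GAGGAAG, a core bound by the myeloid factor PU.1 (10.6% of promoters), TGACTCA, the AP-1 site (4.46%), or GTCTAGAC, the SMAD palindrome (0.167%). The other Tgfbr1 entry (chr4:47385966-47386215), 32994 bases downstream of that start, held 1 GAGGAAG and 1 CAGAC. A match here is a run of letters, not a measured binding site. In GENCODE M21 on GRCm38, Tgfb1 covers chr7:25687002-25705077, Nrros chr16:32142785-32165594 and Tgfbr1 chr4:47353222-47414931. All 10 genes are protein-coding.

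**Figure D1:**
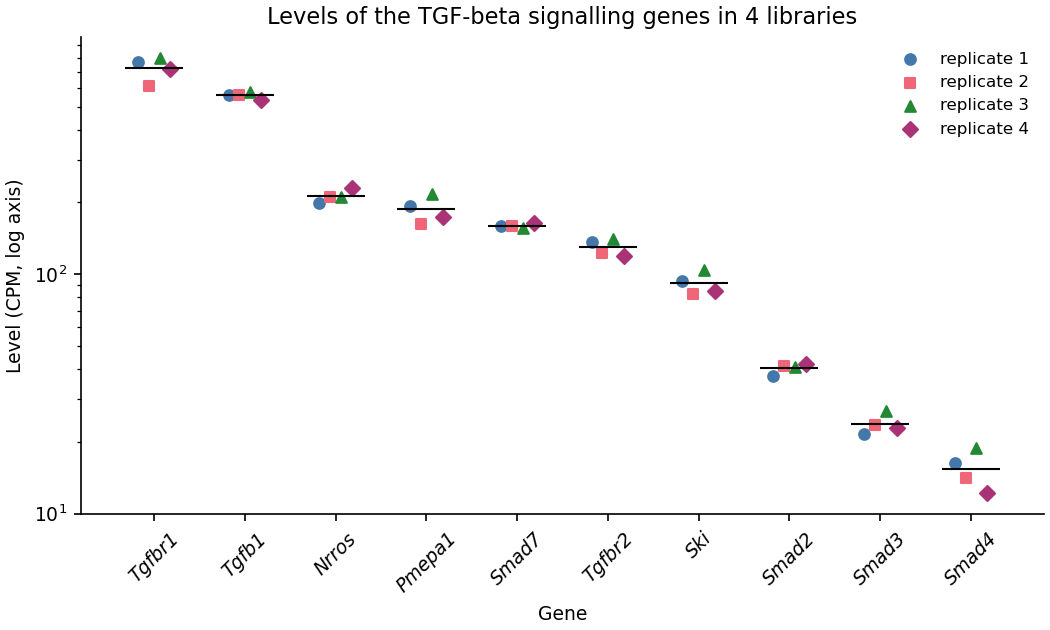
Level of each TGF-beta signalling gene (vertical axis, CPM on a log scale) in each of the 4 libraries. Points are libraries (1 mouse each) and the horizontal line is their mean. Tgfbr1 and Tgfb1 sit above 530 CPM in every library and Smad4 lies between 12.2 and 18.8 CPM.

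Tgfb1 was one of the more abundant microglial mRNAs. Its level was 558 CPM in replicate 1, 558 CPM in replicate 2, 578 CPM in replicate 3 and 533 CPM in replicate 4 (557 ± 18.2 CPM, mean ± SD, n = 4), which ranked it 237 of the 15581 detected genes. The libraries were close, with the highest 1.08 times the lowest. Since 1 UMI is counted per captured 3' end, levels here do not scale with transcript length, although genes may differ in how well their 3' ends are captured.

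Nrros, which anchors the latent ligand, was measured at 198, 211, 210 and 229 CPM in replicates 1 to 4 (212 ± 12.9 CPM, rank 670). There were 2.64 ± 0.218 Tgfb1 UMIs for each Nrros UMI. The other known anchors were nearly absent: Lrrc32, which does this on regulatory T cells and platelets, and Ltbp1, a matrix carrier, had 0 UMIs in 33165655, where 3 UMIs would be 0.0905 CPM.

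Of the receptors, the type I receptor Tgfbr1 was the most abundant of the 10 genes, at 771, 611, 794 and 716 CPM (723 ± 81.6 CPM, rank 173). Replicate 2 was the lowest. The type II receptor Tgfbr2 was at 136, 123, 140 and 120 CPM (129 ± 9.68 CPM), and type I exceeded type II in every library, with a ratio of 5.59 ± 0.431. The ratio of Tgfb1 to Tgfbr1 was 0.723, 0.913, 0.727 and 0.745, so that the receptor mRNA exceeded the ligand mRNA in all 4 libraries.

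The signal transducers were the 3 lowest members. Smad2 lay between 37.4 and 42.2 CPM (40.4 ± 2.10), Smad3 between 21.5 and 26.9 CPM (23.6 ± 2.29) and Smad4, the common partner, between 12.2 and 18.8 CPM (15.4 ± 2.85). Smad2 exceeded Smad3 in every library, by 1.72 ± 0.144 times. Smad4 rested on 494 UMIs, the fewest of the set, and its highest library was 1.54 times its lowest, the widest range among the 10 genes.

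The inhibitory Smad7 was measured at 159, 159, 155 and 163 CPM (159 ± 3.16 CPM) and was the least variable member, with a coefficient of variation of 1.99%. It carried 2.01 ± 0.148 times as many UMIs as Smad2, Smad3 and Smad4 together. Ski, a corepressor that binds Smads, was between 82.6 and 104 CPM (91.4 ± 9.67). Pmepa1, a target that in turn restrains the receptor Smads, was at 192, 163, 217 and 172 CPM (186 ± 24.0 CPM).

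The order of the levels was Tgfbr1, Tgfb1, Nrros, Pmepa1, Smad7, Tgfbr2, Ski, Smad2, Smad3 and Smad4. Neighbours in this order kept separate library ranges except Nrros with Pmepa1 and Pmepa1 with Smad7. Nrros exceeded Pmepa1 in 3 of 4 libraries, and Pmepa1 exceeded Smad7 in all 4, by 1.02 to 1.40 times.

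No member had 1 library standing apart by Dixon's range test of log2(CPM + 1), which picked out 4.62% of the 7656 genes with a mean of at least 10 CPM. The median SD over libraries was 0.12 (log2) for the members and 0.11 for all these genes. Scaling the totals by TMM set replicate 4 of Tgfb1 apart, and using only cells with 1000 genes or more set a library of Smad3 apart.

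A wider pathway list of 59 genes placed the members in context. At least 10 CPM was reached by 27 of them, and 20 were below 1 CPM. Of the 17 genes for ligands and their release only Itgb5, Itgav and Furin reached 10 CPM. Itgb5, an integrin chain that pairs with the alpha V chain, was at 1195 ± 77.3 CPM and Itgav, the alpha V chain, at 53.4 ± 4.83 CPM. Itgb8, whose integrin is known to release active TGF-beta, had 0 UMIs. Among the other ligands, Tgfb2 had 2 UMIs in all and Tgfb3, Bmp4 and Bmp6 none. Smad1, a transducer of the related BMP pathway, was at 48.2 ± 3.74 CPM. Among the targets and partners, Sall1, a microglial identity factor listed with the TGF-beta targets, was at 154 ± 14.3 CPM, Skil, a relative of Ski, at 114 ± 9.42 CPM, and Fkbp1a, which binds and holds the type I receptor inactive, at 145 ± 11.6 CPM.

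**Figure D2:**
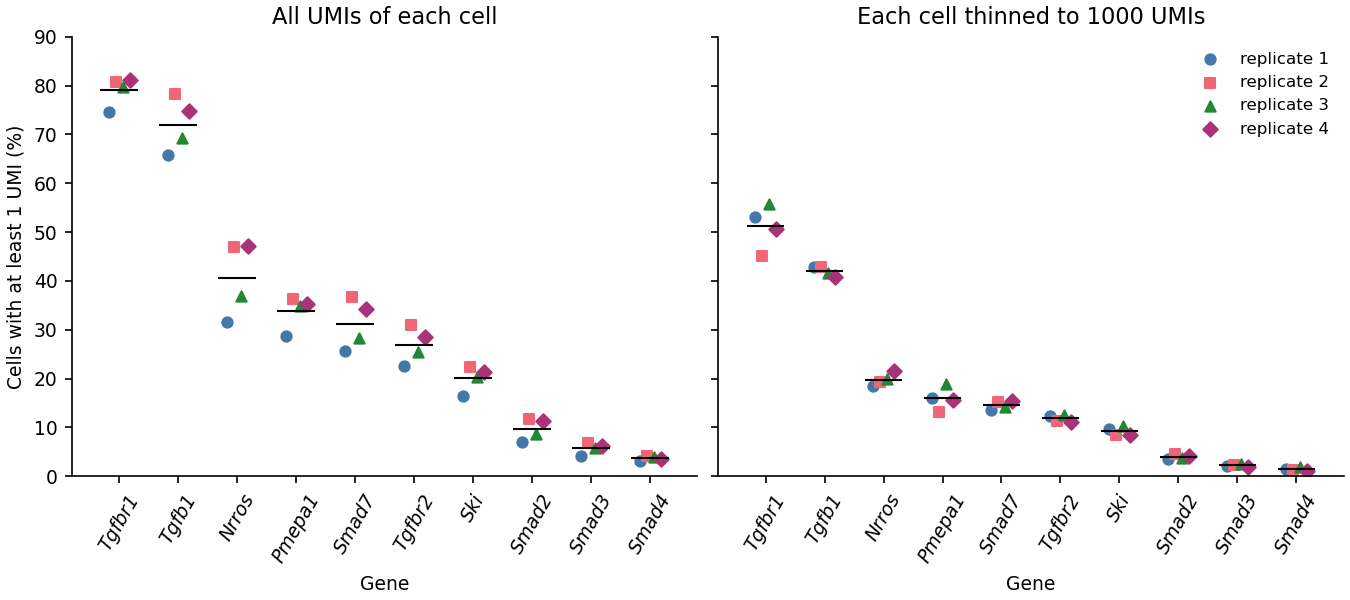
Share of cells with at least 1 UMI of each gene (vertical axis, %) in each library, from all UMIs of a cell (left) and after every cell was thinned to 1000 UMIs (right). Points are libraries and lines are means. At full depth every gene is lowest in replicate 1, where the median of 1905 UMIs per cell was the lowest, and the mean for Tgfbr1 is 79.1% at full depth and 51.2% after thinning.

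Taken separately, Tgfb1 and the type I receptor Tgfbr1 were each detected in most cells at full depth. They were found together in a mean of 58.2% of cells, from 49.97% in replicate 1 to 64.2% in replicate 2. The type II receptor Tgfbr2 was found in a mean of 26.9% of cells. At full depth, a Tgfbr1 UMI was found in 74.7% of cells in replicate 1 (95% Clopper-Pearson interval 73.2% to 76.1%), 80.8%, 79.7% and 81.2% in the others, and a Tgfb1 UMI in 65.8%, 78.2%, 69.3% and 74.7%. The shares for Smad2, Smad3 and Smad4 were 9.68 ± 2.16%, 5.72 ± 1.15% and 3.68 ± 0.503%. These shares rise with the UMIs per cell, so cells were also thinned to 1000 UMIs, which 12737 cells reached. For Tgfbr1 the thinned shares were 53.1%, 45.1%, 55.8% and 50.6%, with replicate 2 lowest as it was in CPM. The means were 51.2 ± 4.55% for Tgfbr1, 42.1 ± 0.951% for Tgfb1, 19.8 ± 1.35% for Nrros, 15.9 ± 2.39% for Pmepa1, 14.6 ± 0.808% for Smad7, 11.9 ± 0.699% for Tgfbr2 and 9.19 ± 0.844% for Ski. Smad2, Smad3 and Smad4 were at 4.05 ± 0.472%, 2.22 ± 0.213% and 1.42 ± 0.398%. No population of cells that lacks these genes was large enough in the sort to give a background share.

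At 1000 UMIs the spread of the counts over cells was close to that of random sampling. The variance of thinned counts over cells divided by their mean was between 0.968 and 1.09 for every member in every library, where 1 is Poisson sampling. For Tgfbr1, the most abundant member, it was 1.03 to 1.09. At means as low as 0.0145 UMIs per cell (Smad4), the ratio stays near 1 even where cells differ in level. It therefore does not show that cells share a common level. The share of cells with a Tgfbr1 UMI was 51.2% against 52.2% under Poisson sampling, and for Tgfb1 42.1% against 42.4%. Tgfb1 and Tgfbr1 were found together in 21.6 ± 2.05% of thinned cells, against 21.5% if independent. The trio of Tgfb1, Tgfbr1 and Tgfbr2 was found in 2.69 ± 0.260% of thinned cells (2.56% if independent) and in 16.9 ± 4.13% of cells at full depth. A cell had a median of 3 members with a UMI at full depth, and 1.80 ± 0.736% of cells had none.

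Co-variation of the members over cells was weak. Pearson's r was computed within each library on the natural log of counts per 10000 plus 1, in cells thinned to 1000 UMIs, and averaged over the 4 libraries. The median of the 45 pairs was 0.00375, with a range from -0.0189 to 0.0232, and 27 pairs were above 0. Without replicate 4 the median was 0.00150, and at 2000 UMIs per cell it was 0.00708. Over all 29303340 pairs of tested genes the median was -0.000247, and the middle 95% lay between -0.0165 and 0.0188. The highest pair was Tgfb1 with Tgfbr2, at 0.0109, 0.0127, 0.000828 and 0.0683, and so rested on replicate 4. Tgfbr2 with Smad7 was lowest, below 0 in 4 of 4 libraries. In counts this sparse, correlations of this size are given as a description only. Cells of a library share that library and, after thinning, the same depth, and they are not replicates.

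**Figure D3:**
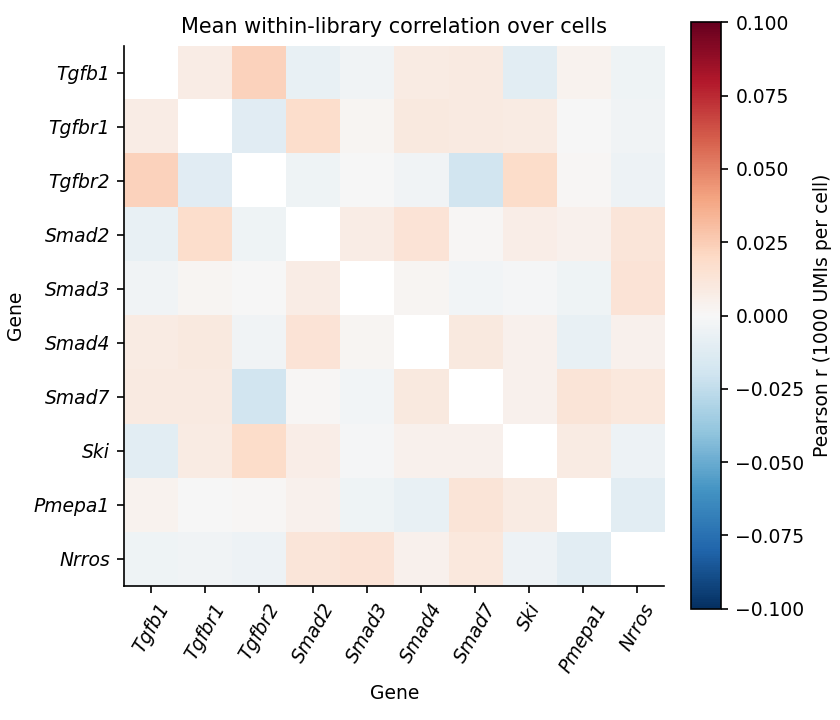
Mean Pearson r over the 4 libraries for each pair of TGF-beta signalling genes, on log-scaled counts in cells thinned to 1000 UMIs. The colour runs from -0.1 to 0.1, and all 45 pairs lie between -0.0189 and 0.0232.

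The genes most like each member by the same measure, over all tested genes, also had small values. Tgfb1 had the microglial markers Fcrls (0.0363) and P2ry12 (0.0355) among its nearest genes. Tgfbr1 had the nuclear RNA Malat1 (0.0490), Selplg (0.0443) and Tpst2 (0.0352), and Malat1 was also nearest to Smad7 (0.0425), ahead of Bag5 and Sfxn2. The nearest genes were Cklf, Ftsj2 and Rnf6 for Tgfbr2, Cnot8, Prpf4 and Rbm18 for Smad2, Ftsj2, Msl3 and Birc2 for Smad3, and Htt, Baz2a and Nono for Smad4. For Ski they were Gm43672, Nomo1 and Crebrf, for Pmepa1 they included Zfp706 and Asap1, and for Nrros Eif2b4, Malat1 and Tmem173. All the genes named in this comparison lay between 0.0320 and 0.0490. They are the highest among 7656 tested genes, and the highest of so many values can be of this size by sampling alone. Whether any of them exceeds that was not tested, so they are given as a description only.

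Cell states were then compared within each library. Each state was defined by UMIs of a marker list in cells thinned to 1000 UMIs, so it is a range of a score and not a cell type, and the members are in none of the lists. The genes of a list were left out of the tests and of the totals for its own state. The sums of the unthinned counts per library and state were tested by edgeR's quasi-likelihood test with library as a block and Benjamini-Hochberg adjustment over all tested genes. Intervals for a difference are 2 standard errors on either side.

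Tgfb1 and Nrros rose with the homeostatic score, which sums 17 microglial identity genes from the list of the study, without Tgfbr1, which that list also holds. Cells at or above the 75th percentile of their library (3381 cells) were set against those at or below the 25th (3389 cells), with 54 to 89 cells per library exactly at the upper mark. Tgfb1 was at 669, 635, 658 and 599 CPM in the high cells and 543, 597, 588 and 547 CPM in the low cells of replicates 1 to 4, a log2 fold change of 0.18 ± 0.041 (SE, adjusted p = 0.000464). High cells exceeded low cells in 4 of 4 libraries, and the library values did not overlap, although the closest were 599 and 597 CPM.

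Nrros was at 243, 243, 252 and 249 CPM in the high cells and 185, 220, 230 and 247 CPM in the low cells (log2 fold change 0.17 ± 0.054 SE, adjusted p = 0.0247). It was higher in 4 of 4 libraries, by the most in replicate 1 and by the least in replicate 4, whose low cells overlapped the high cells of the other mice. These were 2 of 10 members higher, against 4.23% of 9200 genes higher, 4.24% lower and 8.47% called in all. The median log2 fold change was 0.02 over the members and -0.01 over all genes.

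The remaining 8 members did not pass the test. Tgfbr1 was at 791 ± 75.2 CPM in the high cells and 764 ± 82.3 CPM in the low cells, a log2 fold change of 0.07 with an interval from -0.01 to 0.14 (adjusted p = 0.322). Smad4 was at 13.3 ± 4.83 against 19.4 ± 4.51 CPM (log2 fold change -0.53 ± 0.19 SE, adjusted p = 0.0691) and was lower in the high cells of 4 of 4 libraries. Smad7 was at 163 ± 6.10 against 180 ± 10.7 CPM (-0.13 ± 0.059 SE, adjusted p = 0.177), also lower in 4 of 4.

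Of the wider list, Itgb5 (log2 fold change 0.28, adjusted p = 4.57e-11) and Eng, a co-receptor (0.27, adjusted p = 0.0175), rose with the score, and Id2 (-0.53, adjusted p = 3.62e-05) and Cdkn1a (-0.62, adjusted p = 0.00681), both listed as targets, fell. They were 4 of the 35 genes of that list that were tested, against 8.47% of all 9200 genes called in this contrast. The share of UMIs from ribosomal protein genes moved with the score, at 6.89% to 8.09% in the high cells and 9.24% to 10.4% in the low cells, and its part in these differences was not tested. Macrophage markers averaged 0.0238 to 0.247 UMIs in the low cells and 0.00436 to 0.0120 in the high cells, and disease-associated genes 0.0655 to 0.0776 and 0.0205 to 0.0333. Without cells of the rare states, an alternative chosen after seeing the data, both genes passed (adjusted p = 0.000329 for Tgfb1 and 0.0107 for Nrros). The Nrros call passed in 7 of 13 alternatives and was lost without replicate 1 (adjusted p = 0.331) or replicate 2 (0.158), with DESeq2 (0.210), with a split at the median score (0.193) and with thinned counts summed (0.111). Tgfb1 passed in each of these. Neither gene passed in a fit without the library block (adjusted p = 0.247 for Tgfb1 and 0.411 for Nrros).

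**Figure D4:**
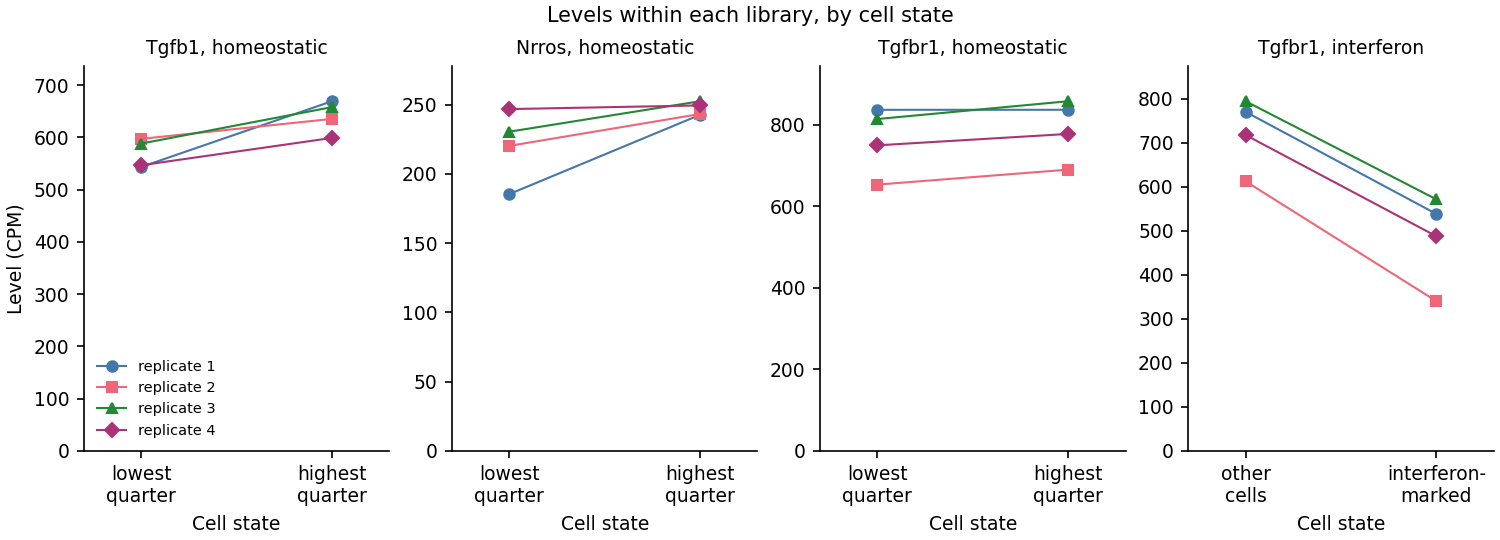
Level (vertical axis, CPM, from 0) of Tgfb1, Nrros and Tgfbr1 in cells with the lowest and highest homeostatic score, and of Tgfbr1 in other cells and interferon-marked cells. Each line is 1 library. Tgfb1 and Nrros are higher in the high cells of every library, and Tgfbr1 is lower in the interferon-marked cells of every library.

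Tgfbr1 fell in cells marked by interferon-response genes. These were the 75 cells with at least 3 UMIs of 12 interferon-induced genes, between 12 and 32 per library, against 12662 others. Tgfbr1 was at 538, 340, 571 and 488 CPM in the marked cells and 770, 613, 795 and 718 CPM in the others, with no overlap between the sets and a lower value in 4 of 4 libraries. The fitted log2 fold change was -0.83 ± 0.17 (SE, adjusted p = 0.000221). It was the 1 member called of 10, against 1.11% of 9464 genes lower, 1.25% higher and 2.36% called in all.

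The fit by TMM placed the median of all genes at -0.34, so that Tgfbr1 stood 0.49 below it. With DESeq2 size factors in the same fit the median was -0.10 and Tgfbr1 was at -0.59 (adjusted p = 0.0281). Over all genes, 118 were higher and 105 lower by TMM and 135 and 15 with size factors. DESeq2's own test gave -0.59 with an adjusted p of 0.180. The marked cells held 88 Tgfbr1 UMIs in all, and 4 to 11 cells per library sat exactly at the mark, with 11 to 23 more at 1 UMI below it. With a mark of 2 UMIs (145 cells) the log2 fold change was -0.51 (adjusted p = 0.0222).

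Other scores moved with the interferon mark. The mean homeostatic score was 76.7, 81.1, 76.2 and 73.9 UMIs in the marked cells of replicates 1 to 4 and 84.1, 85.1, 82.8 and 83.5 in the others. The share of ribosomal protein UMIs was higher in the marked cells of 3 of 4 libraries, at 8.44% to 9.85% against 7.88% to 9.15%. In replicate 3 the marked cells averaged 4.33 chemokine UMIs against 0.0694. The part of these in the Tgfbr1 difference was not tested.

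Of the other members, Tgfb1 was at 461 ± 96.0 CPM in the marked cells against 557 ± 18.0 CPM (log2 fold change -0.54, interval -0.90 to -0.17, adjusted p = 0.100) and was higher in replicate 2 alone. The remaining 8 had intervals that included 0, and Smad3 rested on 3 UMIs. Itgb5 of the wider list also fell (1010 ± 212 against 1195 ± 76.9 CPM, adjusted p = 0.0320), by 0.15 (log2) more than the median of all genes. It was the 1 gene called of the 35 tested in that list, against 2.36% of all genes.

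**Figure D5:**
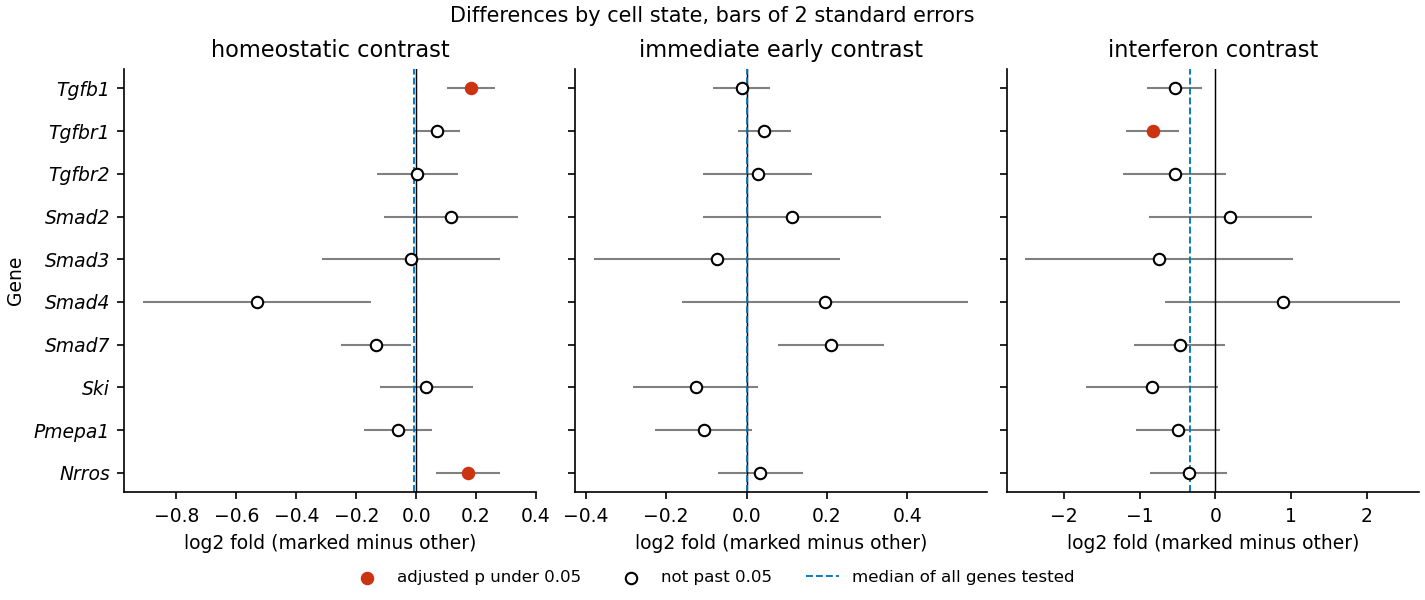
Log2 fold change of each TGF-beta signalling gene (horizontal axis, scales differ) between homeostatic-high and -low cells, immediate early-high and other cells, and interferon-marked and other cells. Points are edgeR estimates with bars of 2 standard errors, filled where the adjusted p is under 0.05, and the dashed line is the median of all genes tested.

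No member passed the test against immediate early genes, which respond within minutes to stimulation and to tissue handling. Cells with the highest immediate early score in each library (1916 cells) were compared with the other 10821. Because of ties, 787 of the 3495 cells of replicate 1 counted as high. Of the cells there, 470 sat exactly at the mark of 3 UMIs and 836 at 1 UMI below it. At counts this low, sampling alone moves cells across the mark. The intervals below therefore hold for these groups and not for a response to stimulation. The edgeR test called 6 of 9863 genes higher (0.0608%) and 0 lower, and DESeq2 called 1. Of the 10 members, 1 had an unadjusted p under 0.05, in edgeR and in DESeq2 alike. That member was Smad7, at 166, 169, 165 and 227 CPM in the high cells and 158, 158, 154 and 155 CPM in the others (log2 fold change 0.21 ± 0.066 SE, adjusted p = 0.377). It was higher in 4 of 4 libraries and most in replicate 4, without which the log2 fold change was 0.07 (adjusted p = 0.967). The intervals of the other members ran from -0.38 to 0.55 in all, and Tgfb1 and Tgfbr1 were bounded within -0.08 to 0.11.

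The remaining states were too rare for a test at the same mark and are given as pooled levels, each with an exact Poisson 95% interval that covers counting error only. In 20 cells with at least 3 UMIs of disease-associated genes, Tgfbr1 was at 275 CPM (170 to 420), Tgfb1 at 366 CPM (243 to 529) and Pmepa1 at 39.2 CPM (8.09 to 115, from 3 UMIs), all below the libraries' values for the other cells. In 27 chemokine-marked cells, Nrros was at 408 CPM (279 to 575) against 211 ± 13.2 CPM in the others. At a mark of 2 UMIs it was at 332 ± 179 against 211 ± 13.5 CPM, higher in 2 of 4 libraries and not past the test (adjusted p = 0.812). In 33 cells with macrophage markers, Tgfbr1 was at 468 CPM (375 to 579) against 724 ± 80.5 CPM in the others. Smad7 was at 92.6 CPM (53.9 to 148) against 159 ± 3.53 CPM. Members whose intervals reached the library range went both ways. Tgfbr2 was at 196 against 129 ± 10.1 CPM, Nrros at 283 against 212 ± 13.3 CPM and Tgfb1 at 430 against 557 ± 17.5 CPM. The macrophage marker cells had medians of 9932 UMIs in replicate 2 and 5261.5 UMIs in replicate 3, against 2940 and 2223 in the other cells there, with median homeostatic scores of 62 and 65. In replicates 1 and 4 their medians were 1873 and 2670 UMIs, against 1917.5 and 2815, with median homeostatic scores of 33 and 43. Leaving out the 1% of cells with the highest UMI totals in each library kept 19 of the 33. No doublet call was made, and the part of doublets with microglia in these levels was not tested. Replicate 4 gave 12 of the 27 chemokine-marked cells and 17 of the 33 macrophage marker cells.

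With a lower mark of 2 UMIs, the disease-associated cells could be tested (50 cells, 9 to 18 per library). Tgfbr1 was at 355 ± 149 CPM against 725 ± 81.5 CPM (log2 fold change -1.30 ± 0.26 SE, adjusted p = 3.15e-05) and fell in 4 of 4 libraries. Smad7 (-1.25, adjusted p = 0.0269) and Tgfb1 (-0.76, adjusted p = 0.0482) also passed, so that 3 of 10 members fell, against 3.81% of 9476 genes lower, 2.02% higher and 5.83% called in all. The median of all genes was -0.44 in this fit. With size factors, where it was -0.18, Tgfbr1 was at -1.03 (adjusted p = 0.00143), and Smad7 (adjusted p = 0.163) and Tgfb1 (adjusted p = 0.370) did not pass. The cells also differed in other ways whose part was not tested. Their median homeostatic score was 23 to 61.5 UMIs against 82 to 84, and ribosomal protein genes took 10.7% to 17.7% of their UMIs against 7.83% to 9.11%. In 64 chemokine-marked cells at the same mark, 0 of 10 members passed in edgeR, 1 had an unadjusted p under 0.05, and 0.392% of 9450 genes passed.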

How the data were processed

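UMI counts per gene and cell were deposited by the authors for each of the 4 libraries, made with Cell Ranger 2.2.0 on mm10 (GRCm38) per the labels, without normalization. The matrices were used as deposited, after dropping cells in which fewer than 400 genes were detected or over 10% of UMIs were mitochondrial. No doublet caller was run, and the fits were repeated after removing the 1% of cells that had the highest UMI totals. Levels are summed counts per 1000000. The members and lists were chosen with earlier results of these data known.

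Library levels were compared by Dixon's range test on log2(CPM + 1). Cell states were set in cells thinned at random to 1000 UMIs: the 75th and 25th percentile (homeostatic), the highest 10% of cells with ties included (immediate early), and 3 UMIs or more of the list (interferon and the rarer states). A contrast was tested where each library held at least 5 such cells and all libraries together at least 50. Summed counts were tested with edgeR 4.0.16 (R 4.3.3), quasi-likelihood, TMM scaling and library as a block, at an adjusted p of 0.05. DESeq2 1.42.0 was an alternative. The named genes were the 10 members, the wider-list genes past the threshold (at most 6 a contrast) and the 3 genes most correlated with each member, some of which are not reported here, and other wider-list genes were named after their values were seen. The edgeR fit and Dixon's test were also run on simulated counts. Intervals and floors cover counting error only. Depth was 5841671 to 11267195 UMIs per library. Clec7a, one of the disease-associated markers, was not used here. Promoters came from RefSeq and positions from GENCODE M21.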

Additional observations from a re-analysis of the deposited data

Results flagged for a closer look

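Dixon's range test was applied to 105 values measured in each of the 4 libraries, and 5 had 1 library apart from the others. Chance alone sets apart about 1 in 20. The ratio of Tgfb1 to Tgfbr1 was set apart by replicate 2, at 0.913 against 0.723 to 0.745 in the other libraries (gap over range 0.873). Replicate 2 also held the lowest Tgfbr1 level, 611 CPM, while its Tgfb1 level of 558 CPM lay between those of the other mice.

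In the immediate early contrast, the log2 ratio of Smad7 was set apart by replicate 4 (gap over range 0.934), where Smad7 was at 227 CPM in the high cells and 155 CPM in the others. Replicate 4 also had the highest immediate early score at the mark, 7 UMIs against 3 to 4, and its part in the Smad7 value was not tested.

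Among genes of the wider pathway, replicate 3 had the highest Itgav, 60.6 CPM where the other mice had 50.4 to 51.9 CPM (0.848). Furin, a protease that processes the ligand precursor, was at 19.3 CPM in replicate 2, below the 25.7 to 26.6 CPM of the other mice (0.884). Ldlrad4, a feedback inhibitor, was at 45.1 CPM in replicate 1, below 55.7 to 57.7 CPM in the remaining libraries (0.860).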

How the results depend on the processing

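No member had a library apart, but 1 did with TMM-scaled totals (Tgfb1) and 1 in cells with at least 1000 genes (Smad3). The 2 members called in the homeostatic contrast became 1 with DESeq2 (Tgfb1), 1 when cells above and below the median score were compared and 1 with thinned counts summed, an alternative chosen after seeing the data. Without the library block, 0 were called by edgeR and 3 had an unadjusted p under 0.05. Leaving out a library in turn gave 1 to 3 called members: Nrros was lost without replicate 1 or 2, and Smad4 was called lower without replicate 3 (adjusted p = 0.0275). Smad7 was called lower once the 1% of cells with the highest UMI totals were removed (adjusted p = 0.0459). The 1 member called in the interferon contrast became 0 with DESeq2, where 1 had an unadjusted p under 0.05. For none of these was the cause tested.

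Over all genes, calls in the homeostatic contrast numbered 779, against 296 with DESeq2, 152 without the block and 460 with thinned counts summed. In the interferon contrast they numbered 223, against 115 with DESeq2, 111 with thinned counts summed and 127 without replicate 1 or without replicate 4. In the immediate early contrast they numbered 6, against 1 with DESeq2, 46 with no filter on low counts, 0 without the block and 14 without replicate 1 or without replicate 2.

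The median correlation of member pairs was 0.00708 at 2000 UMIs per cell and 0.00150 to 0.00354 when a library was left out. Of the single-gene values in the contrasts, 347 of 357 kept their direction and their side of the threshold, where a direction is compared for called genes only. Most of these values belong to genes not called to begin with. Of the called genes, Tgfb1 passed in 12 of 13 alternatives and Nrros in 7 of 13 (homeostatic), and Tgfbr1 in 11 of 12 (interferon). All 60 recomputed mean levels moved by less than 1 SD between libraries, whereas of 50 recomputed shares of cells 10 moved by more, each after thinning to 1000 UMIs. Leaving out a library cannot move a mean by as much as 1 SD of the same libraries. Thinning removes UMIs and so lowers the shares by design. These counts therefore do not show whether the levels or shares are stable. Depth limits the low genes: in the interferon-marked cells Smad3 rested on 3 UMIs and Smad4 on 6.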
